A study of Mus musculus with 12 samples.

Results

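Cytosolic ribosomal protein genes were followed through 12 RNA-sequencing libraries of mouse mammary fibroblasts. They were chosen by name alone: protein-coding genes whose symbol is Rpl or Rps followed by a number (with an a, x, y or l suffix where present), p0 to p2, a or sa. The rule found 83 of the 55487 genes in the table and took no pseudogene. Of these, 80 reached at least 1 CPM (count per 1e+06 assigned reads) in at least 3 of the 12 libraries and were tested among 13280 genes, 48 of the large and 32 of the small ribosomal subunit. The 3 that were not tested are Rpl3l, Rpl10l and Rpl39l.

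All cells came from 1 primary fibroblast line of the B6 strain, isolated from the fat pad of a mammary gland. The study set out to compare normal cells with cells made senescent. The doxorubicin group received 100 nM doxorubicin, a DNA-breaking drug that traps type II topoisomerases, for 24 h, and like its H2O vehicle group was lysed on day 7. The peroxide group (750 uM H2O2 for 2 h, given 3 times with 48 h of recovery) and its own H2O vehicle group were lysed on day 6. Each of the 4 groups held 3 libraries. Passaging to hold a suitable density is recorded for the vehicle cultures only, so agent and passaging cannot be told apart. The labels do not call the replicates separate cultures. What the p-values weigh is then the scatter among 3 libraries a group, which may be technical.

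Each cytosolic ribosome carries a single copy of nearly all of these proteins, and their mRNAs are made in step with growth. Nearly all of these mRNAs start with a run of pyrimidines, the 5′ terminal oligopyrimidine (TOP) motif, through which mTOR and the RNA-binding protein Larp1 control their translation. When ribosome assembly is disturbed, several free ribosomal proteins, Rpl5 and Rpl11 above all, bind Mdm2 and thereby stabilise p53. A few members have paralogs, among them Rps27l, a known p53 target, and Rpl22l1, which can take the place of Rpl22.

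The windows printed here show the start sites of members to which the results return: Rps6, the phosphorylated substrate of the S6 kinases, as a typical member, the paralog pairs Rps27 with Rps27l and Rpl22 with Rpl22l1, and Rplp2 and Rps10, which varied most between libraries. Each runs 5′ to 3′ from 50 bases before to 20 bases after a RefSeq transcript start on GRCm38 (mm10), and capitals mark a run of at least 7 pyrimidines within 10 bases of the start.
Rps6 (chr4:86857348-86857417, minus strand): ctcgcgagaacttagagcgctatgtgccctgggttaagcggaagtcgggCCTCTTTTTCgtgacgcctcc
Rps27 (chr3:90213629-90213698, minus strand): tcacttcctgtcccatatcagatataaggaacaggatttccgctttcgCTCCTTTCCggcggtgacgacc
Rps27l (chr9:66946036-66946105, plus strand): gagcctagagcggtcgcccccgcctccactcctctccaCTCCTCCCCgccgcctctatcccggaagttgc
Rpl22 (chr4:152325676-152325745, plus strand): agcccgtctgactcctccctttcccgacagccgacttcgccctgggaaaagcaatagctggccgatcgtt
Rpl22l1 (chr3:28805458-28805527, plus strand): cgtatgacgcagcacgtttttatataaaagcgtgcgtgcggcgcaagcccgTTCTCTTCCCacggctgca
Rplp2 (chr7:141447601-141447670, plus strand): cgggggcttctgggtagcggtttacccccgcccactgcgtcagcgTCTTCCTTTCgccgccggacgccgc
Rps10 (chr17:27635225-27635294, minus strand): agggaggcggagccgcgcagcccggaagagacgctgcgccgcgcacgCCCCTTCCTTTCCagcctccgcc

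All but the Rpl22 window hold such a run. Rps27l and Rpl22 have 2 RefSeq starts each, of which 1 is shown. RefSeq promoter windows (250 bases before to 50 after a start) were matched for 63 of the 83 members, 60 of them tested. The pyrimidine run was found in 55% of the 60 and in 22.5% of the 27025 genes of that table. Searched on both strands over 300 bases, CCGGAAG (the core bound by Ets factors) was in 41.7% of these members and 9.93% of all genes. AAGATGGC (the YY1 core) was in 10% against 3.19%, CTTTCC (which can overlap the pyrimidine run) in 51.7% against 29.3%, and TATAAA in 11.7% against 15.7%. Such a match is a description of these letters, not a measured binding site.

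Estimated depth was 17.3 to 37.6 M (1e+06) reads per library. Fibroblast markers summed to 9762 to 14248 CPM after doxorubicin against 7606 to 8474 CPM, and to 9711 to 11171 CPM after peroxide against 7038 to 8587 CPM, whereas 6 epithelial markers summed to at most 1.16 CPM and pericyte markers to at most 1.48 CPM. Some sums were higher in treated cells. Endothelial markers, of which only Tek reached 1 CPM, summed to 34.4 to 45.2 CPM after doxorubicin against 12.5 to 16.4 CPM, and to 22.7 to 28.1 CPM after peroxide against 5.67 to 9.48 CPM. Leukocyte markers summed to 27.1 to 32.6 CPM against 11.1 to 17.6 CPM and to 23.2 to 26.1 CPM against 16.3 to 17.4 CPM. Of these, Ptprc was at 0 in 8 of 12 libraries (at most 0.0927 CPM) and Cd3e in 7 (at most 0.170 CPM). Csf1r (7.16 to 14.1 CPM), Lyz2 (1.23 to 15.8 CPM) and Cd68 (0.810 to 6.49 CPM) were detected in every library. Adipocyte markers summed to 3.86 to 5.26 CPM against 1.28 to 2.00 CPM and to 1.45 to 2.81 CPM against 0.341 to 0.694 CPM. Whether such cells were present, and what part they had in the results, was not tested. Among the 80 tested members 3 libraries stood apart from their groups. The median member of doxorubicin replicate 1 lay 0.25 (log2) above the mean of its 2 group mates, and 77 of 80 members were higher there. Peroxide replicate 2 and doxorubicin vehicle replicate 3 held far less of a few members, the lowest being Rps10 (-1.84) and Rplp2 (-1.09) respectively. Counts are therefore also given without these 3 libraries. The 3 were picked by the values of the members themselves, so counts and calls without them are no independent support. Leaving out doxorubicin replicate 1, where 77 of 80 were higher, by itself lowers the doxorubicin mean of nearly all members.

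Ribosomal protein mRNA made up 5.42% ± 0.547 of all assigned reads after doxorubicin (SD, n = 3) and 7.78% ± 0.294 in its vehicle (SD, n = 3). The doxorubicin libraries held 6.04%, 5.03% and 5.18%, and their vehicle libraries 7.73%, 7.52% and 8.10%, with no overlap. After peroxide the members made up 6.31% ± 0.331 (SD, n = 3) against 6.75% ± 0.304 in its vehicle (SD, n = 3). The peroxide libraries held 6.21%, 6.68% and 6.04%, and their vehicle libraries 6.42%, 6.81% and 7.01%. Here the groups overlapped. The day 7 vehicle thus held more ribosomal protein mRNA than the day 6 vehicle, while the highest doxorubicin library was level with the lowest peroxide library. These are shares of a library: fewer cells with a high level and less mRNA in every cell cannot be told apart, and neither can an absolute loss of these mRNAs from a gain of others.

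**Figure D1:**
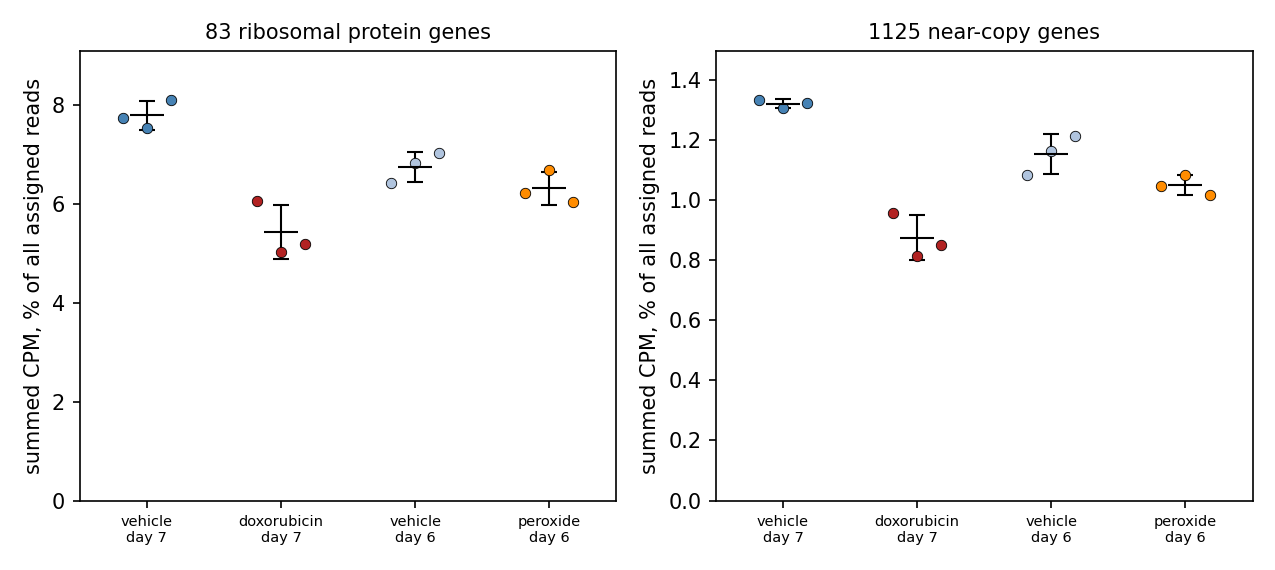
Summed level of the 83 ribosomal protein genes (left) and of 1125 genes sharing 50-base coding windows with them (right), as a percentage of all assigned reads; points are libraries 1 to 3 of each group, from left to right, bars the mean ± SD. The 3 doxorubicin libraries (5.03 to 6.04%) lie below their 3 vehicle libraries (7.52 to 8.10%), whereas peroxide (6.04 to 6.68%) overlaps its vehicle (6.42 to 7.01%).

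After doxorubicin nearly the whole family was lower: 72 of 80 members fell and 0 rose (73 and 1, Rplp2, at an unadjusted p below 0.05 in limma). Among all tested genes 27.8% fell and 22.1% rose. The median member had a log2 fold change of -0.53 (69.0% of its vehicle level), against -0.03 for all tested genes. Both subunits took part, with 44 of 48 large subunit genes (median -0.53) and 28 of 32 small subunit genes (median -0.60) falling. In 71 members all 3 doxorubicin libraries were below all 3 vehicle libraries, which 33.6% of all tested genes also showed. In 1, Rplp2, all were above (26.1% of all tested genes). Without the 3 libraries that stood apart 77 members fell and 1 rose. Fold changes and adjusted p-values throughout are from limma on log2(CPM + 1), adjusted over all 13280 genes by the Benjamini-Hochberg method, and a gene is called at an adjusted p below 0.05.

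The deepest fall was that of Rpl22l1 (chr3:28805436-28807424), whose start window is shown above. It stood at 74.6, 61.1 and 64.7 CPM after doxorubicin and at 171, 169 and 172 CPM in the vehicle. The groups are far apart, with a log2 fold change of -1.35 ± 0.11 (SE, adjusted p = 2.13e-06, limma). Rpl3 (chr15:80077791-80091868), which lies at the peptidyl transferase centre, came next with 1611, 1366 and 1420 CPM against 3069, 2858 and 3248 CPM. All 3 treated libraries were far below the vehicle, and the log2 fold change was -1.06 ± 0.09 (SE, adjusted p = 3.19e-06, limma). Rpl10a (chr17:28328471-28331033), the protein of the mobile L1 stalk at which the used tRNA leaves, stood at 321, 279 and 281 CPM against 558, 522 and 627 CPM (-0.95 ± 0.08, adjusted p = 4.33e-06, limma). Rpl5, which carries 5S rRNA into the ribosome, stood at 202, 163 and 175 CPM against 311, 308 and 356 CPM (-0.85 ± 0.08, adjusted p = 8.28e-06, limma). None of these 4 genes overlapped its vehicle. Further members that fell include Rpl12 (-0.82), Rps3a1 (-0.78) and Rpl10 (-0.75), and the smallest fall was that of Rpl26 (-0.25).

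Rpl26 was the least certain of them (-0.25, adjusted p = 0.0357, limma): it lost its call in 12 of 28 alternative settings. Rpl8 (-0.45, adjusted p = 0.022, limma) lost it when any 1 of 4 single libraries was left out, doxorubicin replicates 2 and 3 and vehicle replicates 1 and 3 (adjusted p 0.058 to 0.0723, limma).

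The 8 members not called after doxorubicin were Rpl27a (-0.27), Rps14 (-0.25), Rps19 (-0.20), Rplp1 (-0.15), Rpl13 (-0.13), Rps10 (0.09), Rps27l (0.18) and Rplp2 (0.81). Of these, Rps10, Rplp2, Rpl27a, Rpl13 and Rplp1 had the widest spread within groups of all members. Rps14 and Rps19, proteins of the small subunit affected in 5q syndrome and Diamond-Blackfan anaemia, missed the threshold (adjusted p 0.0631 and 0.113, limma), and both fell when doxorubicin replicate 1 was left out (-0.35 and -0.27; adjusted p 0.0111 and 0.0382, limma).

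**Figure D2:**
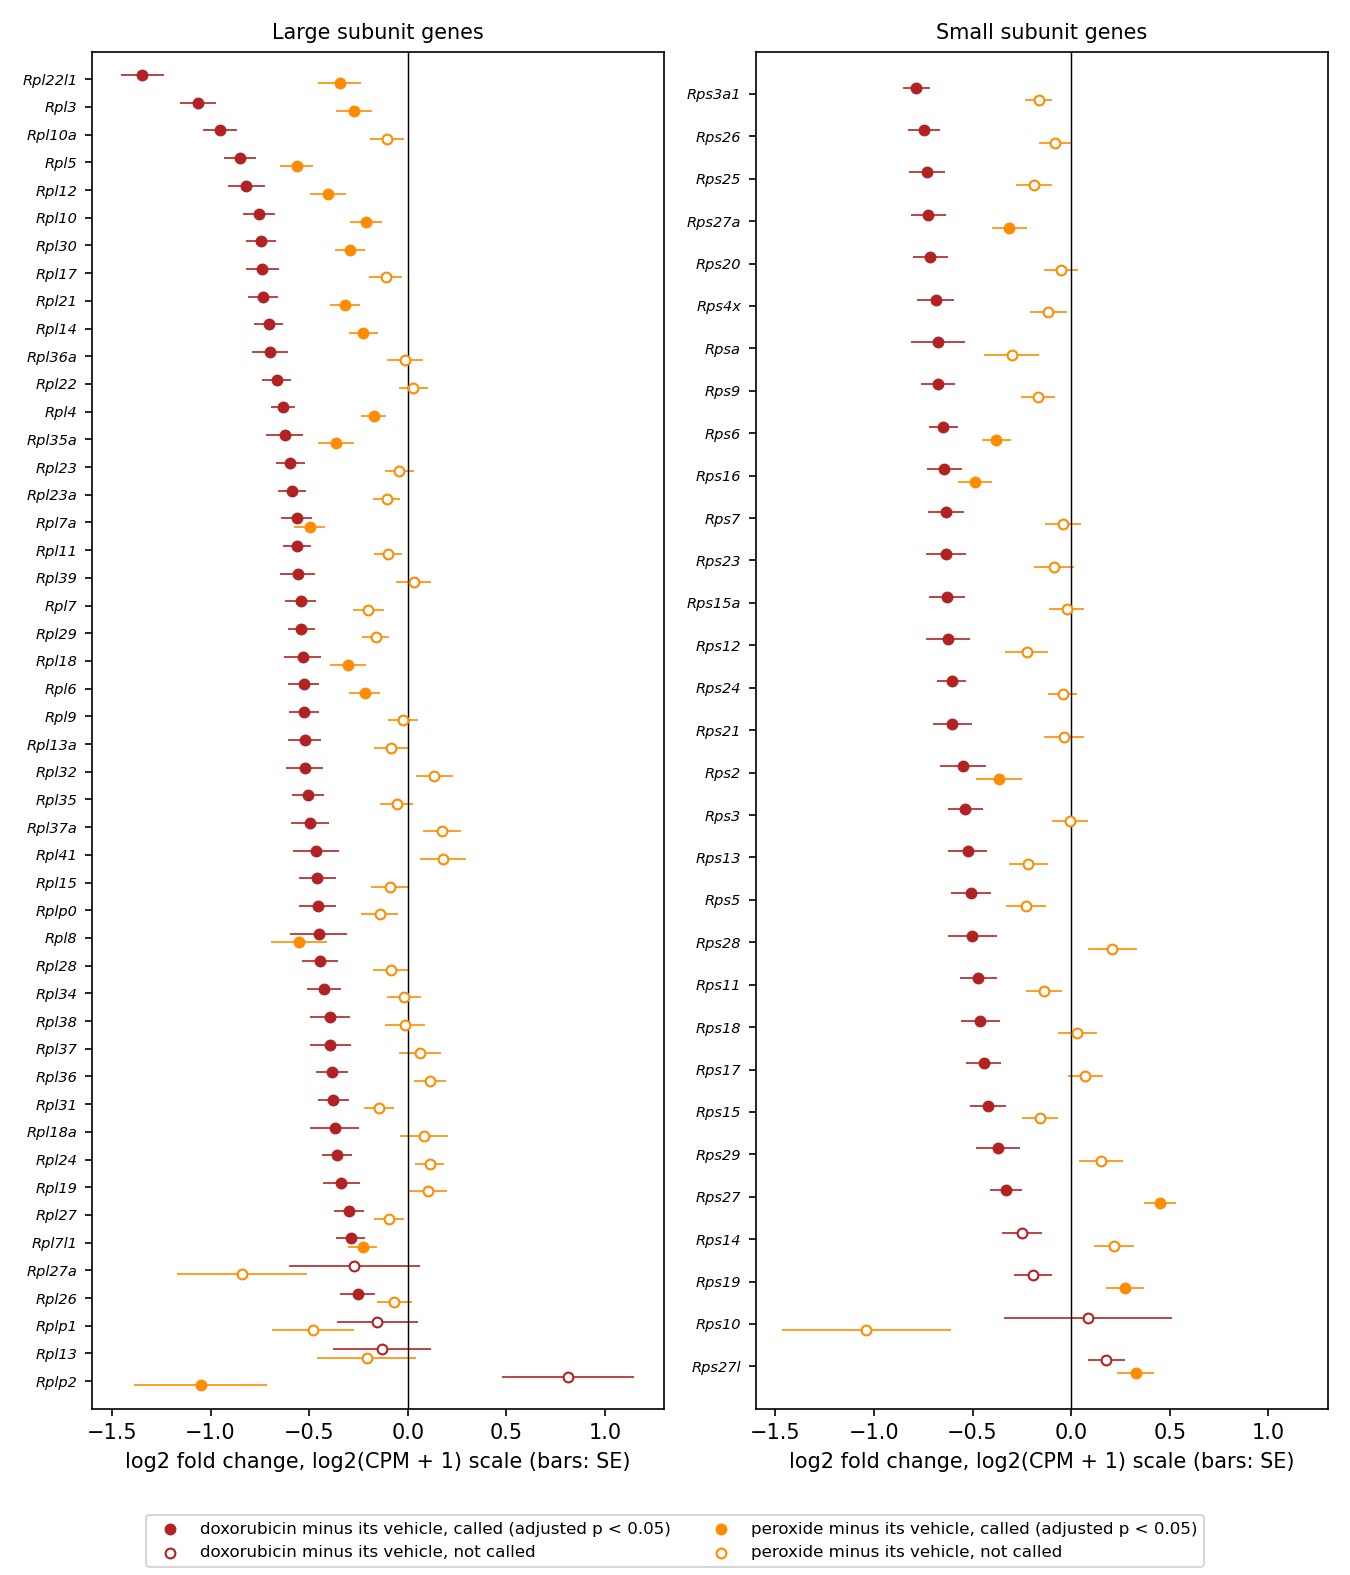
Log2 fold change ± SE of 79 of the 80 tested members, large subunit left and small subunit right, ordered by the doxorubicin change; filled symbols are called (adjusted p below 0.05, limma), open ones are not. Of those shown, doxorubicin (red) lies left of 0 for 76 and is called for 71, whereas peroxide (orange) is called for 20 left of 0 and for 3 right of it (Rps27, Rps27l and Rps19).

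After peroxide the change of the family was small. The fold change was below 0 in 62 of 80 members, and in 6790 of all 13280 tested genes. Of 80 members 21 fell and 3 rose, against 23.4% and 27.3% of all tested genes. The share that fell was thus close to the background, and the share that rose (3.75%) was below it. The median member had a log2 fold change of -0.11 (92.7% of its vehicle level), against -0.01 for all tested genes. Of the large subunit 16 of 48 fell and 0 rose, and of the small subunit 5 of 32 fell and 3 rose. In 28 members every peroxide library was below every vehicle library, which 29.3% of all tested genes showed, and in 5 every one was above (30.7% of all tested genes). The count that fell rests on few libraries: it was 40 without the 3 libraries that stood apart, 12 without peroxide vehicle replicate 2 and 13 without peroxide vehicle replicate 3.

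Rps27 (chr3:90212522-90213651), a zinc finger protein of the small subunit, rose most after peroxide. It stood at 414, 446 and 428 CPM against 301, 308 and 335 CPM in the vehicle. Every treated library was above every vehicle library (0.45 ± 0.08, SE, adjusted p = 0.000822, limma). After doxorubicin the same gene fell, with 389, 328 and 325 CPM against 421, 419 and 468 CPM (-0.33 ± 0.08, adjusted p = 0.00614, limma). Its level after peroxide was thus close to that of the day 7 vehicle. Rps19 (chr7:24884371-24889806) stood at 1977, 2437 and 1961 CPM against 1659, 1778 and 1812 CPM (0.27 ± 0.10, adjusted p = 0.0343, limma). Its highest library was peroxide replicate 2, and without it the call was lost (0.17, adjusted p = 0.106, limma), as it was without any single peroxide vehicle library (adjusted p 0.0516 to 0.113, limma).

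Of the members that fell after peroxide, Rpl5 (-0.56 ± 0.08, adjusted p = 0.000177, limma) stood at 219.9, 211 and 222 CPM against 322, 317 and 326 CPM. Rpl7a, an RNA-binding protein of the large subunit, stood at 448, 517 and 406 CPM against 621, 647 and 659.7 CPM (-0.50 ± 0.08, adjusted p = 0.000315, limma). Rps16, at the decoding side of the small subunit, stood at 419, 442 and 416 CPM against 570.1, 615 and 607 CPM (-0.49 ± 0.09, adjusted p = 0.000767, limma). These 3 genes did not overlap their vehicle. Rpl8, close to the peptidyl transferase centre, stood at 1084, 678 and 988 CPM against 1230.0, 1363 and 1364 CPM (-0.55 ± 0.14, adjusted p = 0.00776, limma), with peroxide replicate 2 far the lowest. Rps6 stood at 694, 711 and 696 CPM against 884, 917 and 933 CPM (-0.38 ± 0.07, adjusted p = 0.00122, limma), and it fell after doxorubicin as well (-0.65, adjusted p = 2.73e-05, limma). Others that fell, apart from Rplp2, were Rpl12, Rps2, Rpl35a, Rpl22l1, Rpl21, Rps27a, Rpl18, Rpl30, Rpl3, Rpl7l1, Rpl14, Rpl6, Rpl10 and Rpl4, from -0.40 to -0.17. Among these Rpl10 was at the threshold (adjusted p = 0.0499, limma) and was not called in 19 of 28 alternative settings, and Rpl3 (-0.27, adjusted p = 0.0282, limma) was not called in 8.

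Of the 72 members that fell after doxorubicin 20 also fell after peroxide, which is 27.8% of the former and 95.2% of the latter list. The 1 member that fell after peroxide alone by the threshold was Rplp2. Tested directly, the doxorubicin effect was lower than the peroxide effect in 50 of 80 members and higher in 1, Rplp2, against 20.1% and 13.5% of all tested genes (51 in either direction, against 33.6%). The median difference of the effects was -0.45. Rpl22l1 (-1.0 ± 0.16, adjusted p = 0.00108, limma), Rpl10a (-0.85 ± 0.12, adjusted p = 0.000663, limma), Rpl3 (-0.79 ± 0.13, adjusted p = 0.00147, limma) and Rps27 (-0.78 ± 0.12, adjusted p = 0.000854, limma) differed most among the genes with the lower doxorubicin effect. Of these, Rps27 fell after doxorubicin but rose after peroxide. For Rpl5 (-0.29, adjusted p = 0.0774, limma), Rps6 (-0.27, adjusted p = 0.0655, limma), Rps16 (-0.16, adjusted p = 0.339, limma) and Rpl7a (-0.07, adjusted p = 0.666, limma) the effects were not shown to differ. Summed with the genes that share their coding windows, Rpl5 (-0.33, adjusted p = 0.045, limma) and Rps6 (-0.30, adjusted p = 0.0376, limma) were called, and Rps16 and Rpl7a were not. Across the 80 members the fold changes of the 2 treatments had r = -0.08 (Pearson) and rho = 0.34 (Spearman), and r = 0.57 over the 75 members whose pooled SD within groups was at most 0.2. Members are not independent, and a few variable genes set the first of these values.

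**Figure D3:**
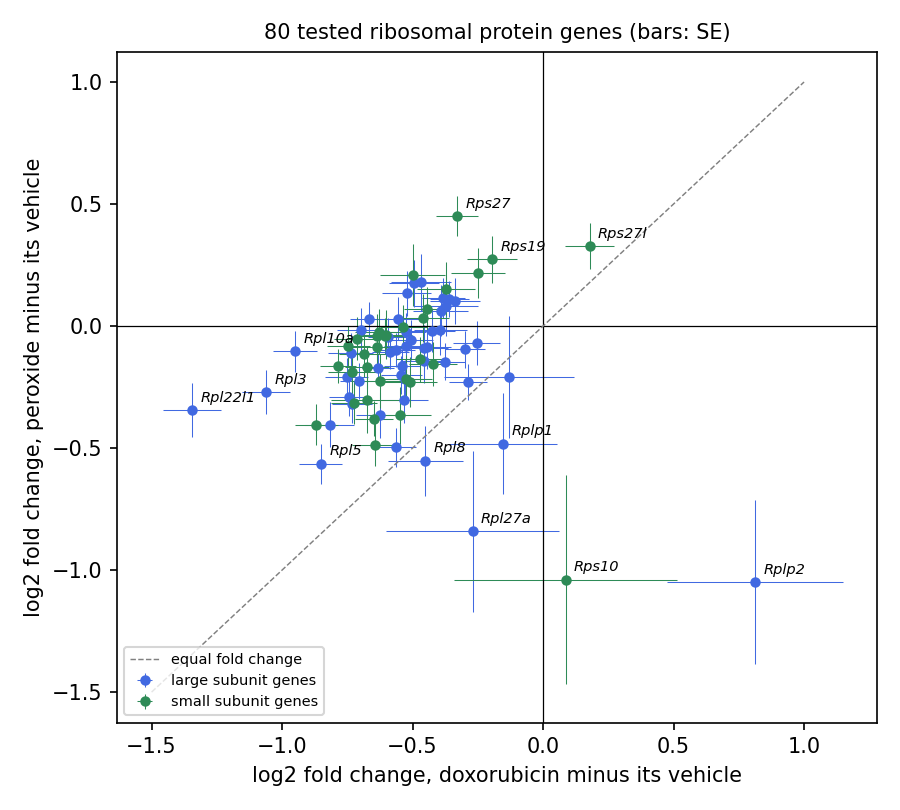
Log2 fold change after peroxide against that after doxorubicin for the 80 tested members (bars, SE; dashed line, equal change), blue for the large and green for the small subunit. Most members lie left of the dashed line, with Rpl22l1 (-1.35) farthest left, Rps27 (0.45) highest, and Rplp2, Rps10 and Rpl27a apart at the lower right with wide errors.

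The vehicle groups themselves differed in these genes. Of 80 members 18 were higher in the day 7 than in the day 6 vehicle and 0 were lower, against 15.1% and 12.9% of all tested genes (median 0.20 for the members, -0.02 for all). In 60 members all 3 day 7 libraries were above all 3 day 6 libraries, which 25.9% of all tested genes also showed, and in 0 all were below (26.3%). Rps27 (0.47, adjusted p = 0.00159, limma), Rps28 (0.45), Rps19 (0.36), Rpl32 (0.34) and Rpl10a (0.34) were the called members with the largest differences, and Rpl22, Rpl3 and 11 more followed at 0.23 to 0.31. Rplp2 (-0.63, adjusted p = 0.186, limma) and Rpl13 (0.35, adjusted p = 0.32, limma) were not called. The count of 18 depended on single libraries. It was 4 and 2 without day 7 vehicle replicates 1 and 3, 2 and 5 without day 6 vehicle replicates 1 and 2, 29 without peroxide replicate 2 and 35 without doxorubicin replicate 1. None of the 80 was lower even at an unadjusted p below 0.05 (0 lower, 36 higher, limma). The 2 experiments differ in vehicle day and schedule, so the difference between the treatment effects cannot be told apart from that between the experiments.

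Cycling markers also differed between the groups. Mki67, Top2a, Cdk1 and Ccnb1 summed to 225 to 262 CPM after doxorubicin against 800.1 to 857 CPM, and to 482 to 491 CPM after peroxide against 1235 to 1307 CPM. All 4 fell after both treatments (median -1.82 and -1.39). After peroxide their fall stood beside a median member of only -0.11. They were lower in the day 7 than in the day 6 vehicle (4 of 4, median -0.64), where the median member was higher (0.20). The part of cell division in the ribosomal protein result was not tested.

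To see which members moved apart from the family, each library was also expressed relative to its own median member. After doxorubicin 12 members were then higher and 21 lower than the family, after peroxide 16 and 12. All tested genes scored the same way gave 58.9% and 6.48%, and 33.4% and 15.6%, because the family itself had moved. Among the members called relative to the family Rpl22l1 (-0.82), Rpl3 (-0.54) and Rpl10a (-0.43) were lowest after doxorubicin, and Rplp2 (1.33), Rps27l (0.70) and Rps19 (0.33) highest (adjusted p 8.22e-06 to 0.0111, limma). After peroxide, again among called members, Rps27 (0.58), Rps27l (0.46) and Rps19 (0.41) were highest, and Rpl5 (-0.43), Rpl8 (-0.42) and Rpl7a (-0.37) lowest (adjusted p 2.87e-06 to 0.036, limma). Not called, but above Rps19 after doxorubicin, were Rps10 (0.61 ± 0.46, SE), Rpl13 (0.39 ± 0.28) and Rplp1 (0.37 ± 0.23). Not called, but below Rpl5 after peroxide, were Rplp2 (-0.92 ± 0.38), Rps10 (-0.91 ± 0.46) and Rpl27a (-0.71 ± 0.36). The doxorubicin counts became 20 and 12, and the peroxide counts 27 and 6, when each member was summed with its near copies.

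Among the paralogs Rps27l (chr9:66946086-66949516) did not share the fall of the family after doxorubicin. It stood at 409.9, 312 and 359 CPM against 314, 311 and 324 CPM (0.18 ± 0.09, adjusted p = 0.139, limma). Its lowest treated library was within the vehicle range, and without it (doxorubicin replicate 2) Rps27l was called (0.28, adjusted p = 0.0238, limma). After peroxide it rose, from 308, 311 and 322 CPM to 392, 360.4 and 432 CPM (0.33 ± 0.09, adjusted p = 0.0138, limma), although without peroxide replicate 3 the adjusted p was 0.0512 (limma). The Rps27l to Rps27 ratio within a library was 1.05, 0.95 and 1.10 after doxorubicin against 0.747, 0.741 and 0.693, and 0.947, 0.807 and 1.01 after peroxide against 1.03, 1.01 and 0.961. It separated doxorubicin from its vehicle and did not separate peroxide from its vehicle.

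Rpl22 (chr4:152325742-152334071) and Rpl22l1 both fell after doxorubicin, Rpl22l1 further. Rpl22 stood at 254, 207 and 222 CPM against 361, 360.3 and 361 CPM (-0.67 ± 0.07, adjusted p = 2.3e-05, limma). After peroxide Rpl22 stood at 315, 309 and 312 CPM against 297, 296 and 326 CPM (0.03 ± 0.07, adjusted p = 0.785, limma), and Rpl22l1 at 121, 95.3 and 129 CPM against 146, 138 and 154 CPM (-0.34 ± 0.11, adjusted p = 0.0217, limma). Leaving out peroxide replicate 2 took away the call on Rpl22l1 (-0.21, adjusted p = 0.0597, limma), as did leaving out peroxide vehicle replicate 1 (adjusted p = 0.0541, limma) or 3 (adjusted p = 0.0717, limma). The Rpl22l1 to Rpl22 ratio was 0.293 ± 0.002 after doxorubicin (SD, n = 3) against 0.473 ± 0.004 in its vehicle, and 0.370 ± 0.055 after peroxide against 0.476 ± 0.013 in its vehicle. In both experiments every treated library was below every vehicle library.

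Rpl7l1, a homolog of Rpl7, fell with both treatments (-0.29 and -0.23; adjusted p 0.00706 and 0.0225, limma), and Rpl7 after doxorubicin (-0.54, adjusted p = 0.00017, limma). The peroxide call on Rpl7l1 was lost without peroxide replicate 1 (adjusted p = 0.0884, limma) or peroxide vehicle replicate 2 (adjusted p = 0.075, limma), with upper-quartile factors (adjusted p = 0.223, limma) and with the replicate block (adjusted p = 0.0551, limma). Rpl7 itself narrowly missed the threshold after peroxide (-0.20, adjusted p = 0.0516, limma), with every treated library below every vehicle library. It was called in 9 of 28 alternative settings. The Rpl7l1 to Rpl7 ratio was 0.210 ± 0.008 after doxorubicin (SD, n = 3) against 0.176 ± 0.007 in its vehicle. After peroxide it was 0.191 ± 0.010 against 0.195 ± 0.012, and the groups overlapped. An exact two-sided permutation test of 3 against 3 libraries cannot give a p below 0.1, which the ratios that separate the groups reach, before any adjustment over the 8 ratios tested. The tissue-restricted paralogs were all but absent. Rpl10l was at 0 in all 12 libraries. Rpl3l, the striated muscle form of Rpl3, reached at most 0.106 CPM, and Rpl39l at most 0.180 CPM, where 3 reads are worth 0.0798 to 0.173 CPM. Their ubiquitous partners Rpl10 (-0.75, adjusted p = 1.95e-05, limma) and Rpl39 (-0.56, adjusted p = 0.000352, limma) fell after doxorubicin as Rpl3 did.

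**Figure D4:**
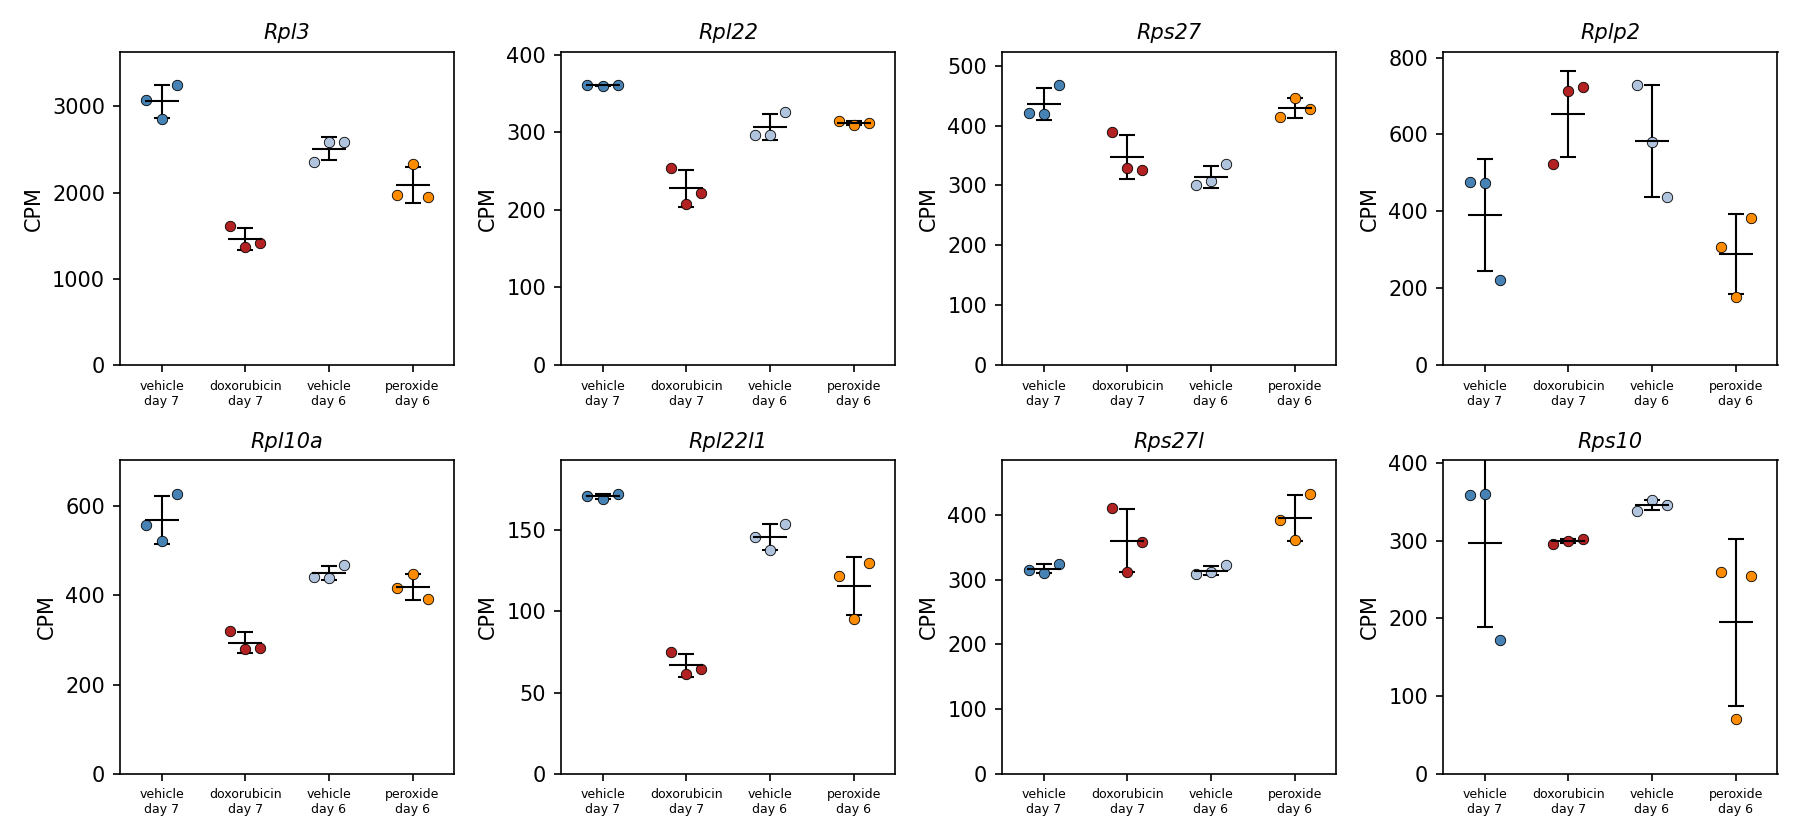
CPM of 8 members in each library (points, libraries 1 to 3 from left to right; bars, mean ± SD of 3). Rpl3, Rpl10a, Rpl22 and Rpl22l1 are lower after doxorubicin without overlap, Rps27 is lower after doxorubicin and higher after peroxide, Rps27l is higher after peroxide, and Rplp2 and Rps10 have single libraries far from their group.

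Among mRNAs of proteins known to bind Mdm2, the 4 followed here (Rpl5, Rpl11, Rpl23 and Rpl26) fell after doxorubicin. Rpl11, partner of Rpl5 in the 5S particle, stood at 296, 255 and 267 CPM against 394, 389 and 424 CPM (-0.56 ± 0.07, adjusted p = 6.14e-05, limma). Rpl23 stood at 689, 557 and 595 CPM against 913, 914 and 943 CPM (-0.59 ± 0.07, adjusted p = 6.31e-05, limma). Both were near the family's median (-0.04 and -0.07 relative to it, adjusted p 0.396 and 0.236, limma), whereas Rpl5 was below it (-0.33, adjusted p = 0.000573, limma) and Rpl26 above (0.27, adjusted p = 0.00117, limma). After peroxide Rpl5 alone of these 4 was called, with Rpl11 at -0.10, Rpl23 at -0.04 and Rpl26 at -0.07.

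The stalk proteins, which recruit the GTPase factors of translation, did not move together. Rplp0, their base, stood at 3001, 2534 and 2539.8 CPM after doxorubicin against 3705, 3567 and 3779 CPM (-0.46 ± 0.09, adjusted p = 0.00193, limma). Rplp2 (chr7:141447370-141451585) stood at 524, 713 and 724 CPM after doxorubicin against 475, 473 and 221 CPM (0.81 ± 0.34, adjusted p = 0.0648, limma). After peroxide it stood at 306, 178 and 383 CPM against 728, 581 and 438 CPM (-1.05 ± 0.34, adjusted p = 0.0226, limma). All treated libraries were above the vehicle in the first case and below it in the second, but the spread within groups is wide. Leaving out peroxide replicate 2 took away the peroxide call (-0.73, adjusted p = 0.0837, limma), as did leaving out peroxide vehicle replicate 1 (adjusted p = 0.0856, limma) or 2 (adjusted p = 0.0583, limma). Without the 3 libraries that stood apart, 1 of which was picked for its low Rplp2, the doxorubicin change was called (0.60, adjusted p = 0.0183, limma). Rplp1, the partner of Rplp2, was not called with either treatment (-0.15 and -0.48, adjusted p 0.56 and 0.0728, limma), with peroxide replicate 2 at 465 CPM beside 942 and 849.8 CPM. Without the 3 libraries it fell after doxorubicin (-0.29, adjusted p = 0.00495, limma) and after peroxide (-0.17, adjusted p = 0.0444, limma).

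Rps10 (chr17:27630418-27636669), named here for its spread after its values were seen, shows most clearly how far single libraries lay from their group. The cause was not tested. Peroxide replicate 2 held 71.1 CPM beside 259.7 and 255 CPM, and doxorubicin vehicle replicate 3 held 173 CPM beside 359 and 360.3 CPM. The day 6 vehicle (339, 352 and 347 CPM) and the doxorubicin group (296, 299.7 and 302 CPM) were even. The pooled SD within groups was 0.61 (log2), followed by Rplp2 (0.48), Rpl27a (0.47), Rpl13 (0.35) and Rplp1 (0.29), while the median member had 0.11 and the median tested gene 0.17. Rpl27a was low in the same 2 libraries (55.4 and 149 CPM), whereas Rpl13 stood out in doxorubicin replicate 2 (175 CPM beside 77.9 and 76.2 CPM).

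Rpl13a, a large subunit protein also released for translational silencing, fell after doxorubicin at the family's median (-0.52, adjusted p = 0.000423, limma; -0.00 relative to the family). Rpsa, also known as a laminin receptor, stood at 1843, 1586 and 1622 CPM against 2636, 2528 and 2902 CPM (-0.68 ± 0.14, adjusted p = 0.00196, limma). After peroxide Rpsa stood at 1772, 2285 and 1489 CPM (-0.30, adjusted p = 0.0909, limma), and it was called without the high replicate 2 (-0.47, adjusted p = 0.00495, limma). The ratio of summed large to summed small subunit reads lay between 1.27 and 1.37 in all 12 libraries. Every peroxide library was below every one of its vehicle libraries (mean 1.31 against 1.36; exact permutation p = 0.1, the smallest that 3 against 3 can give), whereas doxorubicin overlapped its vehicle (1.34 against 1.32).

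Ribosomal protein genes have many processed pseudogenes, and how the authors' counting shared reads among copies is not given in the sources used here. Of the 83 members 80 shared at least 1 window of 50 coding bases with another gene, 30 shared all of them, and the median member shared 90.3%. The 1125 genes that share such windows, 1097 of them processed pseudogenes, took 0.874% of reads after doxorubicin against 1.32%, and 1.05% after peroxide against 1.15%. The largest was Gm15500, a copy of Rpl5 with a mean of 856 CPM over the 12 libraries, above Rpl5 itself in each; it fell with both treatments as Rpl5 did (-0.78 and -0.44, adjusted p 1.92e-05 and 0.00122, limma). Rps27rt, a coding copy of Rps27, moved as Rps27 did (-0.39 and 0.37, adjusted p 0.00132 and 0.00159, limma). Levels of single members with such copies are therefore uncertain. Of the 12 tested members that shared under 50% of their windows, 11 fell after doxorubicin (median -0.52) and 0 rose, and 3 fell and 1 rose after peroxide. With near copies added to each member 72 fell after doxorubicin and 22 after peroxide.

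Other genes of the translation apparatus fell too, to differing degrees. Of 20 further TOP mRNAs 18 fell and 1 rose after doxorubicin (median -0.40), and 8 fell and 1 rose after peroxide (median -0.21). Over all tested genes 27.8% fell and 22.1% rose after doxorubicin, and 23.4% and 27.3% after peroxide, which is the background of each list here. The most abundant, the elongation factor Eef1a1, followed the ribosomal proteins (-0.70, adjusted p = 9.28e-05, and -0.03, adjusted p = 0.785, limma), whereas Npm1, the nucleolar chaperone of ribosome assembly, fell with both (-1.14 and -1.06, adjusted p 1.42e-07 and 2.74e-07, limma). Among ribosomal proteins outside the rule Rpl36al, Rack1 and Fau fell after doxorubicin (-0.55, -0.41 and -0.22; adjusted p 0.000104, 0.0154 and 0.042, limma). In all, 3 of the 4 tested genes of this list fell after doxorubicin and 0 rose. After peroxide 1 of the 4 fell, Rpl36al (-0.43, adjusted p = 0.000545, limma), and 1 rose.

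Further lists of the translation machinery, some of whose genes are TOP mRNAs too, had lower medians after peroxide than after doxorubicin. Of 78 mitochondrial ribosomal protein genes 39 fell after doxorubicin and 37 after peroxide (medians -0.25 and -0.45), and 2 and 1 rose. Among 34 initiation factors 18 and 20 fell (medians -0.28 and -0.46), and among 10 elongation and termination factors 9 and 7 (medians -0.39 and -0.56). Tested directly, genes of each list differed between treatments in both directions. The doxorubicin effect was higher in 16 and lower in 9 of the 78 mitochondrial genes (median difference 0.03). It was higher in 7 and lower in 5 initiation factors (0.05), and in 3 and 3 elongation and termination factors (0.19). Over all tested genes 13.5% were higher and 20.1% lower. Of 18 genes that regulate TOP mRNAs 7 fell and 4 rose after doxorubicin, and 6 fell and 1 rose after peroxide. Of all tested genes 27.8% fell and 22.1% rose after doxorubicin and 23.4% and 27.3% after peroxide, so the share of these regulators that rose after doxorubicin was at the background. Larp1 fell after peroxide (-0.70, adjusted p = 3.63e-05, limma) and was not called after doxorubicin (-0.18, adjusted p = 0.0867, limma). Inhibitors of mTORC1 signalling did not move together. Sesn2 rose with both treatments (0.54 and 0.60, adjusted p 0.0321 and 0.0193, limma). Deptor fell with both (-1.25 and -0.94, adjusted p 6.46e-06 and 5.18e-05, limma), as did Tsc1 (-0.52 and -0.45, adjusted p 0.00376 and 0.00773, limma). Tsc2 rose after doxorubicin (0.90, adjusted p = 0.00486, limma) and was not called after peroxide (0.14, adjusted p = 0.608, limma). Whether the lists differ from the ribosomal proteins was not tested.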

How the data were processed

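RNA of 12 libraries was sequenced. The authors deposited CPM values per gene (each library sums to 1e+06). Per the submitters' processing notes bcl2fastq, DRAGEN and mm10 were used, and the counting method is not given in the sources used here. Of 55774 lines 287 that repeated a gene were removed. Depth (17.3 to 37.6 M reads, M being 1e+06) follows from the CPM of 1 read. Whole reads (tolerance 0.001 read) came out for 74.7 to 79.9% of low values (at most 20 reads), too few for a count test. Genes with at least 1 CPM in 3 libraries were fitted as log2(CPM + 1) in 1 limma model with trend (version 3.58.1, R 4.3.3; 8 residual degrees of freedom), checked on simulated data. Tests are two-sided. A further fit subtracted each library's median member. Named members are, per treatment, the 5 largest called changes each way (3 in the relative fit, at least 5 CPM) and a fixed set of paralogs, stalk, Mdm2-binding and textbook members; further genes were chosen after their values were seen. Some items are not reported here. Members and lists were chosen with earlier results of these data known. Positions and coding windows are from GENCODE M21 on GRCm38 (mm10). Alternatives covered pseudocount, filter, scaling, trend, weights, block, threshold, left-out libraries and near copies.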

Additional observations from a re-analysis of the deposited data

Results flagged for a closer look

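The doxorubicin and peroxide effects differed by the test of the difference itself in 51 of 80 members (limma, adjusted p below 0.05), which is what brought the members named here forward. Over all tested genes 33.6% differed. The 2 experiments differ in vehicle day and schedule. Differences between the treatment effects therefore cannot be told apart from those between the experiments. The difference (doxorubicin minus peroxide, log2) was -1.0 for Rpl22l1, -0.85 for Rpl10a, -0.79 for Rpl3, -0.78 for Rps27 and -0.69 for Rpl22. For Rpl39 it was -0.59, for Rpl23 -0.55, for Rpl10 -0.54, for Rpl11 -0.46, for Rpl13a -0.44 and for Rpl7 -0.34. Rps19 and Rps14 each differed by -0.47. Rplp2 was the single member with a higher effect of doxorubicin (1.86).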

How the results depend on the processing

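No called result changed direction in any of the 28 alternatives, and 30 of the 52 single-gene results kept their side of the threshold in every one. The 72 members lower after doxorubicin numbered 68 to 74 when 1 library was left out and 67 to 77 under the other settings. Members higher after doxorubicin (0) numbered 2 with TMM factors or array weights, 1 with median-of-ratios or upper-quartile factors and 1 without the 3 libraries that stood apart (0 to 1 leaving out 1). Upper-quartile factors moved the median of all genes by -0.10 and that of the members to -0.65 (-0.61 to -0.48 leaving out 1). After peroxide the 3 members higher became 1 with upper-quartile factors or a threshold of 0.01 (2 to 4 leaving out 1). The 21 lower became 9 with upper-quartile factors, 32 with array weights, 40 without the 3 libraries and 10 at 0.01 (12 to 25 leaving out 1). For the difference of effects 1 higher became 0 and 50 lower became 27 at 0.01 (40 to 66 leaving out 1). The 18 members higher in the day 7 vehicle became 3 without a filter, 6 with median-of-ratios and 1 with upper-quartile factors, 7 without the trend, 45 with array weights, 6 without 2 and 35 without 3 libraries that stood apart, and 1 at 0.01 (2 to 35 leaving out 1). Relative to the median member, the 12 higher after doxorubicin became 20 with near copies and 7 at 0.01 (8 to 14 leaving out 1), and the 21 lower became 35 with array weights and 12 with near copies (14 to 26). After peroxide the 16 higher became 27 with array weights and 27 with near copies (13 to 19), and the 12 lower became 23 with array weights, 19 without 2 and 21 without 3 libraries and 6 with near copies (9 to 17). With near copies the summed level was 6.29%, 9.10%, 7.36% and 7.90% in the doxorubicin group, its vehicle, the peroxide group and its vehicle, and with the ribosomal proteins outside the rule it was 8.10% in the doxorubicin vehicle. The causes were not tested. Summing members with near copies was added after seeing the data, and the libraries that stood apart were picked by the members' own values.

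Replicate numbers are not stated to pair the libraries. Deviations of same-numbered treated and vehicle libraries from their group means correlated at -0.31, 0.19 and -0.28 in the doxorubicin experiment. In the peroxide experiment they correlated at 0.14, 0.03 and -0.24. With 3 libraries a group these values cannot decide whether libraries were paired. With the replicate number as a block 72 members were lower after doxorubicin, 17 lower and 2 higher after peroxide, and 1 member was higher between the vehicles.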

Other observations

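Across the 80 tested members the doxorubicin fold change had r = 0.37 with the GC content of the transcript and r = -0.27 with coding length, and the peroxide fold change r = -0.10 and r = -0.33. These values are across genes that share libraries, and are given as a description. Of 93 tested genes with ribosomal protein pseudogene names 62 fell and 1 rose after doxorubicin (median -0.51), and 11 fell and 2 rose after peroxide (median -0.11), close to the medians of the coding members. The background over all tested genes was 27.8% fallen and 22.1% risen after doxorubicin, and 23.4% and 27.3% after peroxide. Among 13 chaperones and assembly partners of ribosomal proteins 5 fell and 3 rose after doxorubicin (median -0.16), and 8 fell and 2 rose after peroxide (median -0.41). The 13 protein-coding genes of the mitochondrial genome were lower in 3 cases after doxorubicin and 10 after peroxide. Of 77 respiratory chain genes encoded in the nucleus 29 fell and 7 rose after doxorubicin, and 11 fell and 20 rose after peroxide, the last a share close to the background.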
